A study of Oryza sativa Japonica Group with 4 samples.

Results

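Panicles of the rice pola mutant were set against panicles of wild type (the POLA wild lines of the labels), both taken from early to late meiosis, with 1 array for each. These are 2 of the 4 samples of the series. The other pair is the ripening stage, 10 to 15 days after pollination, with a POLA RNAi line (T2) and wild type, and it is used here only where the mutant's genes are followed into the RNAi line. Each sample pooled the RNA of 20 panicles from 10 plants that grew in a greenhouse in natural daylight, so the spread between plants is not seen and 1 array a group allows no test. No difference given below has a replicate check. Neither the kind of pola mutation nor the cultivar is given in the sources used here, and the targeted gene is not named in the tables, so its own signal cannot serve as a check of the labels. One label of the RNAi sample names wild lines where its title and genotype name the RNAi line, and the title was followed.

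A panicle at meiosis is a mixture of flower organs, stem tissue and anthers. Inside the anther, meiocytes divide while the tapetum, the inner wall layer, feeds them and later supplies the pollen wall. Several hormones act there, among them jasmonate, whose response is held in check by JAZ proteins, and abscisic acid and gibberellin. JAZ genes are themselves switched on by jasmonate, so their RNA is a common readout of that hormone's response. In pooled panicles fewer cells of a type and less RNA per cell cannot be told apart.

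Signals are MAS5 values on a linear scale. Of 57194 rice probe sets, 20413 had a signal at or above a floor on both arrays and are called bright here. The floor is the highest of the 4 array medians (163.3), rounded down to a whole number. A further 643 probe sets reached it in the mutant alone, 4707 in wild type alone and 31431 on neither array. A gene was read from the brightest of the probe sets that were paired with that gene alone. This gave 17905 genes, of which 13272 were bright on both arrays, and 1914 of the bright genes carried a descriptive name. Just inside the floor lay MADS26 (LOC4344493), with 232 in mutant panicles and 164 in wild-type panicles, and MIA40 (LOC4336462), with 164 in the mutant against 194 in wild type. Just outside lay HS1 (LOC4342550), with 162 on the mutant array and 282 on the wild-type array, and GRXC15 (LOC4352426), with 162 in mutant panicles and 176 in wild-type panicles.

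Both arrays were scaled to the same 2% trimmed mean (500.1) but differed in their dim signals. The median signal was 51.8 in the mutant against 124 in wild type, while the 75th percentiles were 487 on the mutant array and 503 on the wild-type array. Probe sets of reporter sequences that are not rice genes had a median of 5.31 in mutant panicles and 34.7 in wild-type panicles. The 3′ probe set of glyceraldehyde-3-phosphate dehydrogenase gave 4.22 times the signal of the 5′ set in the mutant and 2.04 times in wild type, a ratio that moves with the length of the labelled RNA. The same 3′ to 5′ ratio of actin was 8.06 in the mutant against 5.89 in wild type. The ripening pair differed the same way in its reporter probe sets, with a median of 7.76 in RNAi panicles and 42.8 in wild type. Its 3′ to 5′ ratio of glyceraldehyde-3-phosphate dehydrogenase was 3.32 in RNAi panicles and 2.01 in wild type. For actin that ratio was 6.10 in RNAi panicles and 6.22 in wild type. For cyclophilin it was 1.86 in the mutant against 1.42 in wild type at meiosis. At ripening the cyclophilin ratio was 1.27 in RNAi panicles and 1.90 in wild type. The part of these features in the differences below was not tested.

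Most genes had nearly equal signals in mutant and wild type. The median log2 ratio of mutant over wild type was 0.04 over bright probe sets, and the central 90% of them lay between -0.65 and 0.64. A 2-fold difference or more was found for 542 bright probe sets, 263 higher in the mutant (1.29% of those measured) and 279 lower (1.37%). Per gene, 153 were 2-fold higher (1.15%) and 96 were 2-fold lower (0.723%) of 13272, with a median of 0.07 and 58.9% of ratios above 0 (63.7% among genes with a descriptive name). Among genes with a descriptive name, 30 were higher (1.57%) and only 4 were lower (0.209%) of 1914, so the named part of the list leans to higher signals more than the whole list does. Where a gene past 2-fold had several bright probe sets, they all went the same way for 16 of 21 higher genes and for 10 of 12 lower genes. All of them passed 2-fold for 8 of the 21 and for 2 of the 12.

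**Figure D1:**
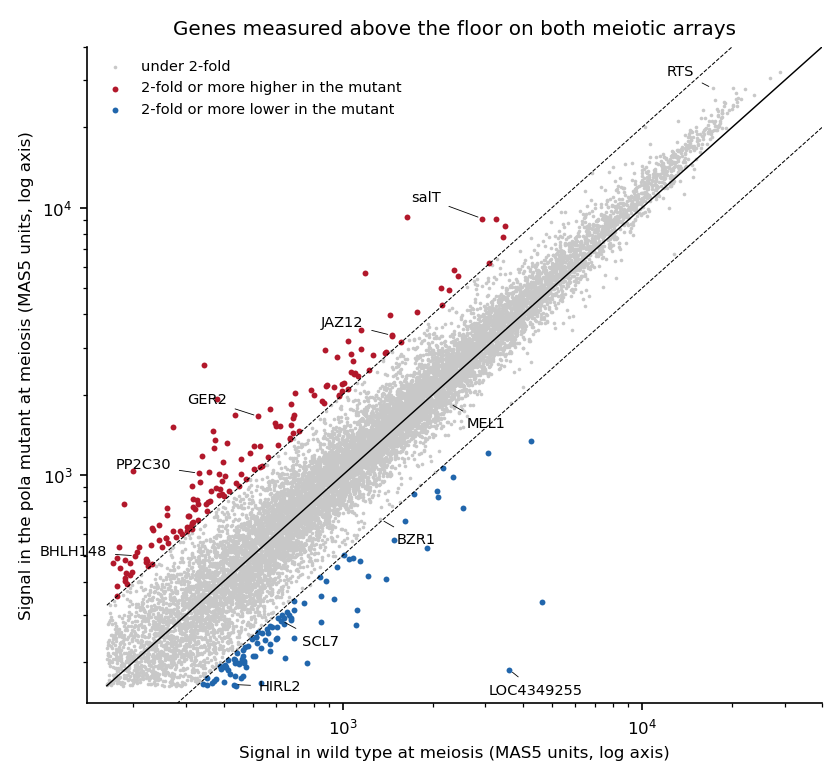
Signal in the pola mutant (y) against wild type (x) for each of 13272 genes above the floor on both meiotic arrays, in MAS5 units on log axes. The solid line is equality and the dashed lines are 2-fold; 153 genes lie on or above the upper dashed line (red) and 96 on or below the lower one (blue), while the tapetum gene RTS at the bright end sits within 2-fold.

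The direction of the differences changed with brightness. When bright probe sets were ordered by mean signal into 5 equal bins, in the dimmest bin the median log2 ratio was -0.15, with 44 probe sets 2-fold higher in the mutant and 155 lower. In the brightest bin the median was 0.15, with 26 probe sets higher and 1 lower. The bin next to the dimmest held 90 higher and 81 lower. After the ratios were centred by loess on brightness, the dimmest bin held 81 higher and 84 lower probe sets and the brightest 17 higher and 4 lower. Lower calls in the mutant are thus concentrated where signals are close to the floor, and lists of dim genes are read with this in view below.

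**Figure D2:**
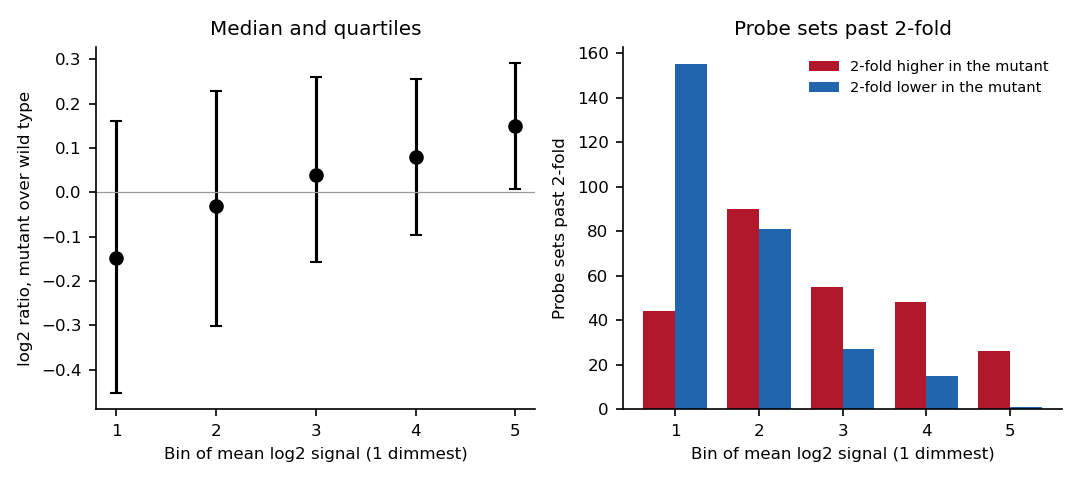
Left, median log2 ratio of mutant over wild type with its quartiles (bars) in 5 equal bins of bright probe sets ordered by mean log2 signal. Right, probe sets 2-fold higher in the mutant (red) or lower (blue) in each bin; the dimmest holds 44 higher and 155 lower, the brightest 26 and 1.

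The 3 named genes with the highest ratios were GER2, salT and PP2C30. GER2 (LOC4344839), a germin-like protein of the cell wall, had 1661 on the mutant array and 521 on the wild-type array, a 3.19-fold difference. Its relative GER6 (LOC4344843) had 669.9 in mutant panicles and 316 in wild-type panicles. Only 3 annotated genes lie between them, and germin-like genes are close copies of each other. Sharing of target RNA between their probe sets at meiosis was not tested. At ripening the 2 genes went opposite ways. GER2 had 2125 in RNAi panicles against 616 in wild type there, and GER6 had 569 in RNAi panicles against 992 in wild type. The other germin-like genes spread widely. GER8 (LOC4325743) had 5445 in the mutant against 4346 in wild type, and GER7 (LOC4334487) had 258 on the mutant array and 381 on the wild-type array. Over the 6 bright members of 9, 2 were 2-fold higher, against 1.57% of named genes, and none was lower. Their median was 0.28 as deposited and 0.15 after quantile normalization, against 0.07 and 0.01 for all genes.

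The lectin gene salT (LOC4326471), which binds mannose and is known to be induced by salt and abscisic acid, had 9125 in mutant panicles and 2921 in wild-type panicles. Its second bright probe set gave 7013 in the mutant against 2189 in wild type, a log2 ratio of 1.68 beside 1.64. PP2C30 (LOC4332374), a protein phosphatase that dampens abscisic acid signalling, had 1017 on the mutant array and 331 on the wild-type array, 3.07-fold. These were 2 of the largest differences among named genes, and both kept their size after quantile normalization, at 1.49 for salT and 1.69 for PP2C30.

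UGE3 (LOC4347638), which interconverts UDP-glucose and UDP-galactose for wall synthesis, had 2761 in mutant panicles and 959 in wild-type panicles. The class III peroxidase PRX112 (LOC4344279) had 633 in the mutant against 231 in wild type, while its second probe set was below the floor on both arrays. DAO (LOC4336150), an oxidase that inactivates auxin and is needed in rice for anther opening, had 2833 on the mutant array and 1067 on the wild-type array. All of them differed by between 2.66-fold and 2.88-fold.

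The aquaporin PIP2;4 (LOC4343119), a water channel of the plasma membrane, had 1281 in mutant panicles and 508 in wild-type panicles. ASMT3 (LOC4347993), of the methyltransferase family that makes melatonin, had 2680.4 in the mutant against 1086 in wild type. GLN2 (LOC4337272), the glutamine synthetase of plastids, had 2173 on the mutant array and 885 on the wild-type array. BHLH148 (LOC4334060), a transcription factor that binds JAZ proteins, had 499 in mutant panicles and 203 in wild-type panicles. These ratios lay between 1.30 and 1.34 on the log2 scale.

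**Figure D3:**
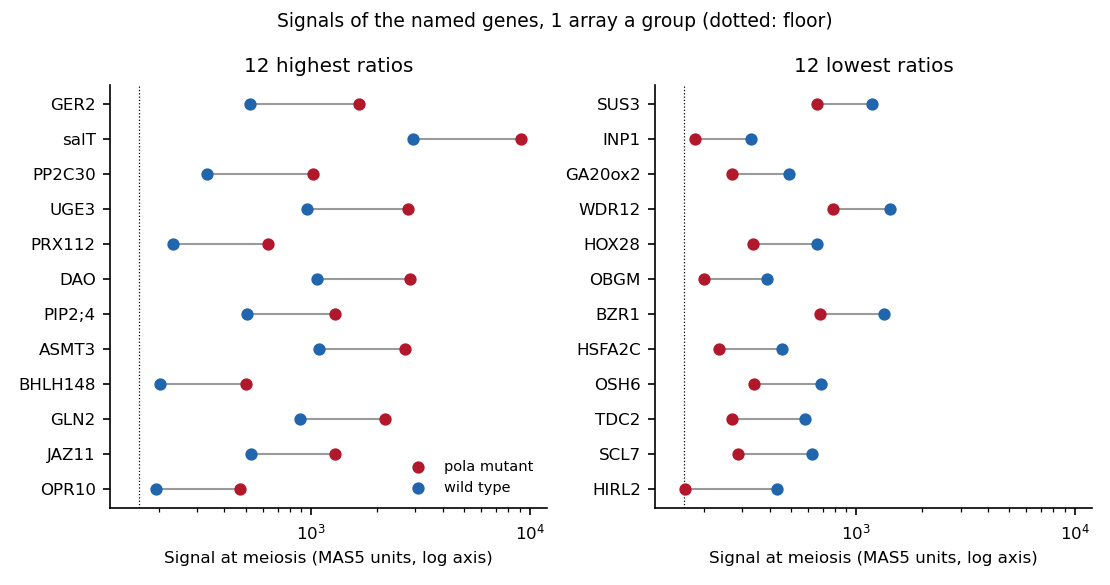
Signals at meiosis in the pola mutant (red) and wild type (blue), in MAS5 units on a log axis, for the named genes with the 12 highest (left panel) and 12 lowest (right panel) log2 ratios. Genes with a bright probe set going the other way are left out. Grey lines join the 2 arrays and the dotted line is the floor. The highest genes span signals up to 9125 in the mutant, whereas none of the lowest exceeds 1432 in wild type.

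In the jasmonate response list the differences past 2-fold were all in JAZ genes. JAZ11 (LOC4331833) had 1286 in the mutant against 529.7 in wild type. JAZ12 (LOC4348533) had 3334 on the mutant array and 1461 on the wild-type array, and JAZ13 (LOC4348531) had 3304 in mutant panicles and 1459 in wild-type panicles. JAZ10 (LOC4331834) had 2192 in the mutant against 998 in wild type on a probe set named as shared by several transcripts, and 707 on the mutant array and 409.5 on the wild-type array on its other set, which lowers its mean log2 ratio to 0.96. These 4 repressor genes were 2-fold higher in the mutant, of 15 bright members of 19, against 1.57% of named genes.

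Next to them in size were JAZ8 (LOC4347164), with 2199.7 in mutant panicles and 1159.9 in wild-type panicles, and JAZ9 (LOC4331832), with 3271 in the mutant against 1804 in wild type. JAZ6 (LOC4333065) had 3366 on the mutant array and 2356 on the wild-type array. JAZ9, JAZ11 and JAZ10 are direct neighbours in the genome, and 3 annotated genes separate JAZ13 from JAZ12, so close copies are again among them. At the other end JAZ4 (LOC4347000) had 208 in mutant panicles and 224 in wild-type panicles, and JAZ3 (LOC4345625) had 1216 in the mutant against 1162 in wild type.

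The genes that perceive jasmonate differed less. The receptor genes COI1 (LOC4324818), with 8110.5 on the mutant array and 7867 on the wild-type array, and COI2 (LOC4332349), with 2937 in mutant panicles and 2762 in wild-type panicles, were close to equal. The adaptor NINJA1 (LOC4339584) had 2909.9 in the mutant against 2807 in wild type. In all, 14 of the 15 bright members had a ratio above 0 and the list median was 0.43. That is 0.37 above the median of all genes, and between 0.20 and 0.37 above it when the arrays were scaled in other ways.

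Genes of jasmonate synthesis had no common direction. OPR10 (LOC4340486), an oxophytodienoate reductase that is also called OPR4, had 470.2 on the mutant array and 194 on the wild-type array and was the only one of 8 bright members past 2-fold. AOC (LOC4333201), allene oxide cyclase, had 7273 in mutant panicles and 4496 in wild-type panicles. AOS (LOC4334233), the allene oxide synthase before it, had 1306 in the mutant against 1266 in wild type. The lipoxygenase LOX2 (LOC4331824) had 551 on the mutant array and 816 on the wild-type array. The list median was -0.03, below that of all genes.

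The largest ratios among abscisic acid genes were those of phosphatases and of a bZIP factor. Besides PP2C30, the phosphatases PP2C09 (LOC4327465), with 1282 in mutant panicles and 686 in wild-type panicles, and PP2C08 (LOC4324182), with 1160.3 in the mutant against 666 in wild type, had ratios of 0.90 and 0.80. The bZIP factor ABF2 (LOC4330838) had 3199 on the mutant array and 1735 on the wild-type array. The kinases SAPK9 (LOC4352660), with 3342 in mutant panicles and 3654 in wild-type panicles, and SAPK8 (LOC4334218), with 3755 in the mutant against 3494 in wild type, were near equality. ABA8OX1 (LOC9269675), which degrades the hormone, had 229 on the mutant array and 306 on the wild-type array. Of 21 bright members 1 was 2-fold higher and none lower, with a median of 0.08, which is 0.01 above that of all genes as deposited and up to 0.02 below it when scaled otherwise.

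Stress and defence lists outside the hormones gave single genes. NAC6 (LOC4325006), a stress-induced transcription factor, had 737 in mutant panicles and 352 in wild-type panicles. Its other probe sets were below the floor on both arrays and lower in the mutant. NAC067 (LOC4342753) had 1991 in the mutant against 972 in wild type. NAC6 and NAC067 were 2 of only 5 bright NAC genes, and NAC067 lay just under 2-fold under median, quantile and loess scaling (0.95 after quantile normalization). NH1 (LOC4327315), the rice counterpart of the salicylic acid regulator NPR1, had 600.3 on the mutant array and 290.1 on the wild-type array, the only one of 15 bright defence genes past 2-fold. PBZ1 (LOC4352491), a pathogenesis-related protein, had 3111 in mutant panicles and 1824 in wild-type panicles. The chitinase Cht1 (LOC4338719) had 333 in the mutant against 462 in wild type.

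Redox lists had few large differences. The glutaredoxins GRXC10 (LOC4351046), with 571 on the mutant array and 244 on the wild-type array, and GRXS5 (LOC4326324), with 2212 in mutant panicles and 1014 in wild-type panicles, passed 2-fold. They were 2 of 36 bright thioredoxins, glutaredoxins and peroxiredoxins, of which 32 had a ratio above 0. Their median was 0.19 as deposited, 0.13 above that of all genes, and 0.09 after loess centring, 0.08 above it. The metallothionein gene MT1 (LOC4351213) had 1899 in the mutant against 953 in wild type, just under 2-fold. None of 23 bright genes for reactive oxygen enzymes and metallothioneins reached 2-fold, and their median was 0.15 above that of all genes as deposited and 0.11 above it after quantile or loess scaling.

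PAL06 (LOC4330040), a phenylalanine ammonia-lyase at the entry to lignin and other phenylpropanoids, had 761 on the mutant array and 316 on the wild-type array, and its second probe set had a log2 ratio of 1.04. CAD6 (LOC4335223), a cinnamyl alcohol dehydrogenase, had 1459.7 in mutant panicles and 813 in wild-type panicles. PAL06 was the only one of 18 bright genes of the lignin list past 2-fold, 15 had a ratio above 0, and the median was 0.33 as deposited and 0.19 after quantile or loess scaling. The wall enzyme list of 61 bright genes had a median of 0.01 and 2 genes past 2-fold, UGE3 and the endoglucanase GLU15 (LOC4345463), with 1463 in the mutant against 715 in wild type, whose log2 ratio was under 1 when the arrays were scaled in other ways (0.98 after quantile normalization). Among 17 bright aquaporins PIP2;4 alone passed 2-fold, and 16 had a ratio above 0, with a median of 0.26 as deposited and 0.11 after quantile normalization.

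The calmodulin-like gene CML14 (LOC4339701) had 465 in mutant panicles and 230.4 in wild-type panicles, the only one of 60 bright calcium sensors and kinases past 2-fold, and had a log2 ratio of 0.97 after median centring. The remaining named genes past 2-fold were picked after their values were seen, to complete the 30. They were MYBS1 (LOC4323963), a MYB factor of sugar signalling, the vitamin B5 enzyme gene KPHMT1 (LOC4326739), Pi21 (LOC4335725), known for blast susceptibility, the chlorophyll breakdown gene SGR (LOC4347672) and the carotenoid enzyme gene PSY2 (LOC4352846). Their log2 ratios lay between 1.02 for PSY2 and 1.19 for MYBS1.

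Gibberellin genes went both ways. GA20ox3 (LOC4342505), which makes gibberellin precursors, had 2067 on the mutant array and 992 on the wild-type array, 2-fold higher as deposited and 0.97 on the log2 scale after quantile normalization. GA20ox2 (LOC4325003), the semi-dwarf gene of the same family, had 269.7 in mutant panicles and 491 in wild-type panicles. CYP714D1 (LOC4339131), which inactivates gibberellin, had 543 in the mutant against 787 in wild type. The repressor gene GAI (LOC4333860, the rice DELLA gene) had 1842 on the mutant array and 1946 on the wild-type array. The median of the 11 bright members was -0.08. Over the 7 with signals of 500 or more on both arrays it was 0.20, so its sign depends on the dim members.

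No bright gene of the tapetum, pollen wall and meiosis lists was past 2-fold. The tapetum genes RTS (LOC4326940), with 28011 in mutant panicles and 17231 in wild-type panicles, and the lipid transfer protein C6 (LOC4350790), with 21609.7 in the mutant against 15787 in wild type, were within 2-fold. EAT1 (LOC4336865), a regulator of tapetum breakdown, had 1643 on the mutant array and 1033 on the wild-type array, and PTC1 (LOC4347213), which acts in the same process, had 785 in mutant panicles and 485 in wild-type panicles. The earlier regulators TDR (LOC4328113), with 1334 in the mutant against 1232 in wild type, and BHLH142 (LOC4325164), with 634 on the mutant array and 748 on the wild-type array, each had nearly equal signals in mutant and wild type.

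None of the 13 bright genes of the tapetum and pollen wall list was past 2-fold, 11 had a ratio above 0, and the median was 0.45. INP1 (LOC4330222), which places pollen apertures, stood apart with 183 in mutant panicles and 328 in wild-type panicles, near the floor in the mutant. The 10 marker genes of the tapetum summed to 103840 in the mutant against 71747 in wild type, 1.45 times, and all 10 were bright on both arrays. The size of this shift moved with the scaling. RTS had a log2 ratio of 0.70 as deposited and of 0.43 after quantile normalization. The other 2 of the 3 brightest markers fell further, C4 (LOC9270168) from 0.48 to 0.17 and C6 from 0.45 to 0.19. The list median stayed between 0.28 and 0.39 above that of all genes.

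Meiosis genes were on the other side of 0 by a small amount. The argonaute MEL1 (LOC4334449), needed for germ cells, had 1858 on the mutant array and 2276 on the wild-type array. SPO11-4 (LOC4352826), of the family that cuts DNA to start recombination, had 4141 in mutant panicles and 4444 in wild-type panicles. ASY1 (LOC4347514), a protein of the chromosome axis that is also known as PAIR2, had 829 in the mutant against 1108 in wild type, and MSH5 (LOC4339215), which acts in crossover formation, had 410.4 on the mutant array and 596 on the wild-type array. DMC1 (LOC4351482), the meiotic recombinase, had 204 in mutant panicles and 177 in wild-type panicles.

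No bright gene of the meiosis list passed 2-fold in either direction among 14 of 20, and the median was -0.05. The 8 marker genes of meiocytes and germ cells summed to 10156 in the mutant against 11274 in wild type, 0.90 times, with 5 of them bright. The labelled tissue therefore showed its anther markers on both arrays. Endosperm markers, for tissue that a meiotic panicle lacks, summed to 2218 on the mutant array and 2186 on the wild-type array. Most of it came from the globulin gene GLB (LOC4337720), with 1617 in mutant panicles and 1232 in wild-type panicles. At ripening GLB had similar signals, 1653 in RNAi panicles and 1434 in wild type, so this sum does not measure endosperm. GLUB-5 (LOC4328968) had 169 in mutant panicles and 210 in wild-type panicles at meiosis. At ripening it had 44608 in RNAi panicles and 34104 in wild type.

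MADS-box genes of floral organs held no 2-fold difference as deposited, and 1 was 2-fold higher after quantile normalization. Of 21 bright MADS-box genes 19 had a ratio above 0, with a median of 0.35 as deposited, 0.18 after quantile normalization and 0.20 after loess centring. MADS3 (LOC9271572), a stamen identity gene, had 751 in the mutant against 467 in wild type, and MADS16 (LOC4342047), which acts in stamens and lodicules, had 15577 on the mutant array and 11531 on the wild-type array. MADS13 (LOC4351753), the ovule gene, had 388 in mutant panicles and 562 in wild-type panicles. Photosynthesis genes had a median of 0.49 with 12 of 13 above 0, and LHCP (LOC4333359), a light-harvesting protein, had 2887 in the mutant against 1465 in wild type. The photosynthesis median was 0.45 after quantile normalization. The green tissue markers summed to 30223 on the mutant array and 23638 on the wild-type array, 1.28 times. The 3 cellulose synthase markers of secondary walls summed to 18375 in mutant panicles and 14268 in wild-type panicles, 1.29 times. Both sums hold bright genes whose ratios moved with the scaling. The brightest green marker, CAB2R (LOC4324599), went from a log2 ratio of 0.28 to 0.04 after quantile normalization. The wall markers CESA4, CESA7 and CESA9 went from 0.39, 0.31 and 0.53 to 0.21, 0.14 and 0.44.

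**Figure D4:**
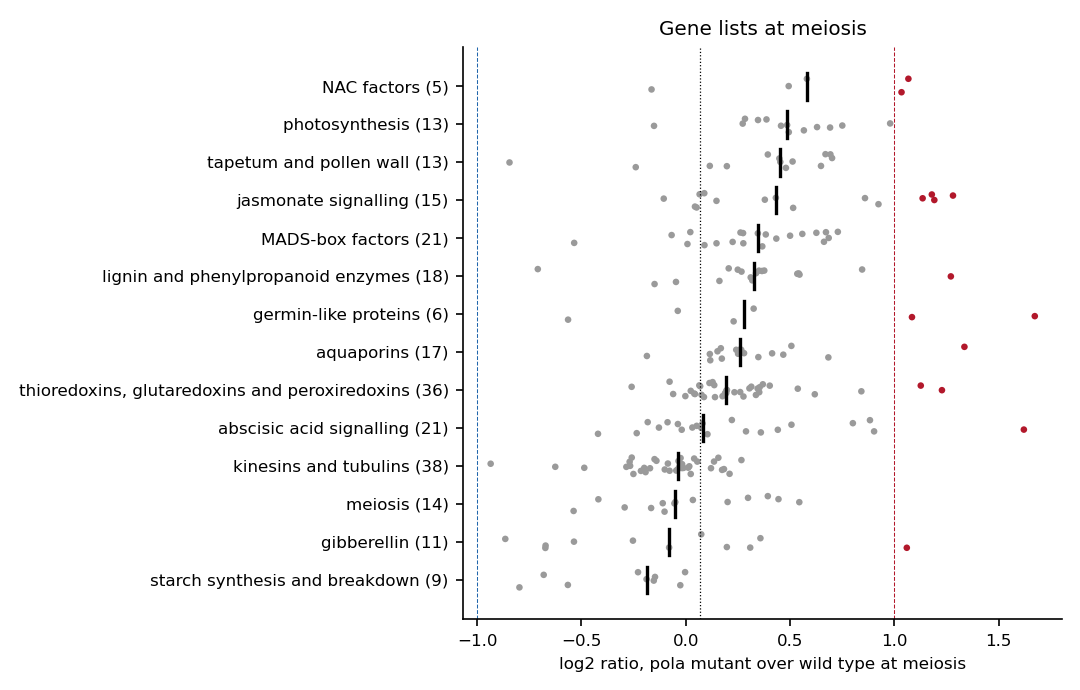
Log2 ratio of mutant over wild type at meiosis for each bright gene (points) of 14 lists, with the number of bright genes beside the list's name; thick bars are list medians, the dotted line is the median of all genes (0.07) and dashed lines mark 2-fold. Red points lie past 2-fold, 4 of them in the jasmonate signalling row, and the tapetum row has its median at 0.45 with no gene past 2-fold.

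Few named genes were lower in the mutant. HIRL2 (LOC4346849) had 165 in the mutant against 433 in wild type, with the mutant's signal at the edge of the floor. SCL7 (LOC4333948), a GRAS family factor, had 286 on the mutant array and 623 on the wild-type array. TDC2 (LOC4343080), a tryptophan decarboxylase, had 270.4 in mutant panicles and 581 in wild-type panicles. OSH6 (LOC4325788), a knotted-like homeobox gene of meristems, had 338 in the mutant against 690.4 in wild type. These 4 were the only bright named genes 2-fold lower in the mutant, and 2 of them, TDC2 (-0.98) and OSH6 (-0.96), were within 2-fold after quantile normalization.

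The next genes, of those with no bright probe set going the other way, were within 2-fold. BZR1 (LOC4343719), the transcription factor of brassinosteroid signalling, had 685 on the mutant array and 1338 on the wild-type array, a log2 ratio of -0.97 that became -1.01 after quantile normalization. The heat stress factor HSFA2C (LOC4348646) had 233 in mutant panicles and 456 in wild-type panicles. The homeobox gene HOX28 (LOC4340069) had 337 in the mutant against 656 in wild type, and OBGM (LOC4351211) had 199.6 on the mutant array and 389 on the wild-type array. WDR12 (LOC4343819), a factor of ribosome assembly, had 778 in mutant panicles and 1432 in wild-type panicles, and SUS3 (LOC4343910), a sucrose synthase, had 659.5 in the mutant against 1183 in wild type.

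Lists with medians below 0 held mostly small differences. Of 9 bright genes of starch synthesis and breakdown none had a ratio above 0, with a median of -0.19 and 2 genes more than 1.5-fold lower, and they stayed between 0.19 and 0.27 below all genes under the scalings tried. The lowest was the starch synthase SS2 (LOC4330709), with 242 on the mutant array and 419.7 on the wild-type array, followed by SSII-1 (LOC4348711), with 575 in mutant panicles and 922 in wild-type panicles. Kinesins and tubulins had 12 of 38 bright genes above 0 and a median of -0.04 as deposited and -0.19 after quantile normalization. The tubulin TUB3 (LOC4341810) was lowest at 582 in the mutant against 1112 in wild type. The bright probe sets of TUB3 did not all go the same way, so its difference depends on the probe set. Ribosomal proteins and translation factors, which are bright on both arrays, had a median of 0.18, which was 0.11 above that of all genes as deposited and 0.03 below it after quantile normalization.

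Genes with a signal below the floor on 1 array have only a bound, taken with the lower signal raised to the floor. Such bounds reached 2-fold higher for 30 of the 258 genes that were at or above the floor in the mutant alone. They reached 2-fold lower for 63 of the 959 genes at or above it in wild type alone. RAB21 (LOC4350454), a dehydrin induced by abscisic acid, had 668 on the mutant array and 47.5 on the wild-type array, a bound of 4.10-fold. Its other probe set, named as shared, gave 357 in mutant panicles and 262 in wild-type panicles, so the size of this difference depends on the probe set. CFBP1 (LOC4325071), the cytosolic fructose-1,6-bisphosphatase, had 520.4 in the mutant against 157 in wild type. ASMT1 (LOC4346795), of the same family as ASMT3, had 462 on the mutant array and 17.9 on the wild-type array.

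Other genes bright in the mutant alone were the expansin EXPA1 (LOC4335222), with 444 in mutant panicles and 85.7 in wild-type panicles, the cell wall invertase CIN1 (LOC4329561), with 360.1 in the mutant against 40.2 in wild type, and the phosphate transporter PHT1-7 (LOC4331542), with 334 on the mutant array and 103 on the wild-type array. A second probe set of PHT1-7 was below the floor on both arrays. In the other direction BC1L9 (LOC4349011), of the COBRA-like wall proteins, had 142 in mutant panicles and 882 in wild-type panicles, a bound of 5.41-fold, while its second probe set was below the floor on both arrays. The pyruvate decarboxylase PDC (LOC4339066) had 71.7 in the mutant against 564 in wild type. The ammonium transporter AMT3-1 (LOC4324937), CYP76M8 (LOC4329722), C3H40 (LOC4340263) and ACA7 (LOC4348639) had between 24.2 and 149.6 in the mutant and between 380.3 and 389 in wild type.

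The RNAi line at ripening shares no array with the mutant comparison. By its label it carries the same POLA name as the mutant, at another stage. Whether both affect the same gene could not be checked, since the gene is not named. The array of the RNAi line differed from that of its wild type in reporter signals and in the dehydrogenase ratio, as the mutant's array did. The actin and cyclophilin ratios did not differ the same way in both pairs. The part of these array features in the genes shared by both comparisons was not tested. Of 12102 genes bright on all 4 arrays, 124 were 2-fold higher in the mutant and 155 in the RNAi line (1.28%). Both held for 12 genes, which is 9.68% of the mutant's list and 7.74% of the RNAi list. Among genes 2-fold lower there were 66 in the mutant, 243 in the RNAi line (2.01%) and 13 in both, 19.7% of the mutant's list and 5.35% of the RNAi list. With quantile normalization of each pair the share of the mutant's lower list became 9.09%.

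In 4 of the 124 and 2 of the 66 the RNAi line differed 2-fold the opposite way. The genes higher in the mutant had a median of 0.14 (log2) in the RNAi comparison, and all 12102 genes one of 0.12. The genes lower in the mutant had a median of -0.38 there. GER2 had 2125 in RNAi panicles against 616 in wild type at ripening, and PAL06 had 1198 in RNAi panicles against 409 in wild type, so these 2 named genes, of those bright on all 4 arrays, were 2-fold higher in both comparisons. PIP2;4 was higher in both as well, with 1241 in RNAi panicles against 41.9 in wild type at ripening, below the floor there, a bound of 7.61-fold. JAZ13 had 311 in RNAi panicles against 867 in wild type at ripening, BHLH148 had 391 in RNAi panicles against 1024 in wild type, and NH1 had 194 in RNAi panicles against 395 in wild type. These 3 were 2-fold lower there and 2-fold higher in the mutant.

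The other JAZ genes of the mutant's list were within 2-fold in the RNAi line. JAZ12 had 4890.3 in RNAi panicles against 5099.7 in wild type at ripening, and JAZ11 had 1585 in RNAi panicles against 1708 in wild type. PP2C30 had 1925 in RNAi panicles against 2062 in wild type, and salT had 7786 in RNAi panicles against 15226 in wild type. No named gene bright on all 4 arrays was 2-fold lower in both comparisons. With signals below the floor raised to it, PDC and ACA7 were. PDC had 44.3 in RNAi panicles against 344 in wild type at ripening, a bound of 2.11-fold, and ACA7 had 149 in RNAi panicles against 807 in wild type, a bound of 4.95-fold. C3H40, below the floor in the mutant at meiosis, went the other way with 3867 in RNAi panicles against 129 in wild type, a bound of 23.7-fold higher.

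**Figure D5:**
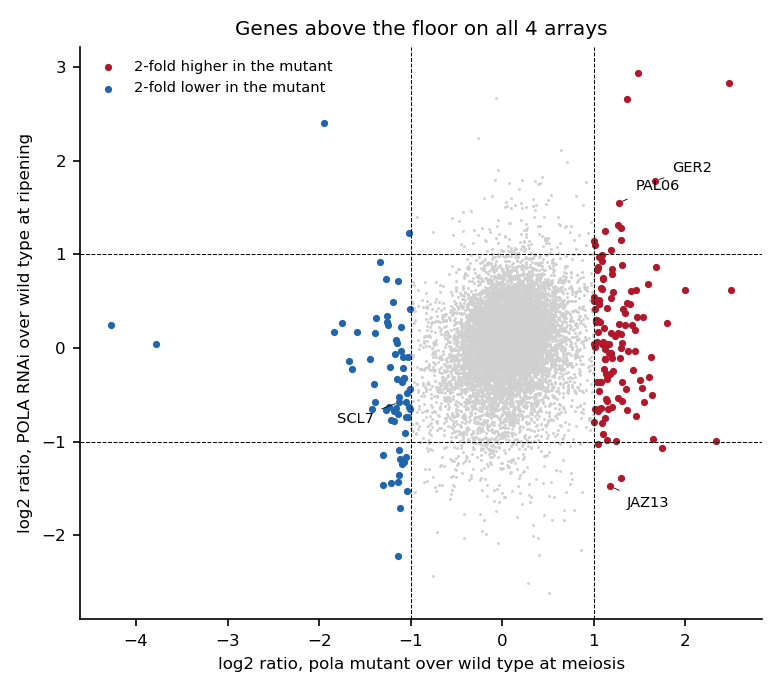
Log2 ratio of POLA RNAi over wild type at ripening (y) against log2 ratio of pola mutant over wild type at meiosis (x) for 12102 genes above the floor on all 4 arrays; dashed lines mark 2-fold in each comparison. Of 124 red genes 12 lie past 2-fold in the upper right, and of 66 blue genes 13 lie past 2-fold in the lower left.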

How the data were processed

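Total RNA, 1 pooled sample a group, was extracted with Trizol and labelled for Affymetrix arrays per the labels' protocols. The authors deposited intensity values on a linear scale, which the submitters' processing notes credit to MAS5; neither its version nor detection calls are given in the sources used here. The 187 control probe sets (AFFX or RPTR) were set aside. Platform annotation paired 22436 probe sets with exactly 1 gene, 95 with several, and did not list 34663. Names came from a RefSeq table (assembly ASM3414082v1) that gives symbols and no descriptions, so 57 gene lists were matched by symbol and "described" was read as having a descriptive symbol; markers of mature pollen gave no list.

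The members and lists were chosen with earlier results of these data known. Each gene was read from the probe set brightest on average over both meiotic arrays, _x_at sets last, and a log2 ratio of at least 1 in size was counted. No test was run. Genes are named by rule: the 12 highest and 12 lowest with a descriptive name and no bright probe set going the other way, 6 bounds each way, up to 4 per list past 2-fold, the 3 brightest markers a list and up to 5 each way in both comparisons; other list members are given as values. Alternatives were the floor for all probe sets, median, quantile and loess scaling (span 0.3), signals of 500 or more, no _x_at or _s_at sets, 1.5-fold and 3-fold thresholds, and means over probe sets. The counting step was run on simulated data with changes larger than the limit, planted only in probe sets well above the floor. This checks the code and says nothing about calls near the floor. Python 3.11.15, pandas 2.3.3, scipy 1.17.1 and statsmodels 0.14.6 were used.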

Additional observations from a re-analysis of the deposited data

How the results depend on the processing

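With 1 array a group, no alternative measures the spread between plants, and dim signals limit the lower calls most. Raising every signal below the floor to it gave 657 lower probe sets and 159 lower genes. Quantile normalization gave 402 higher and 159 lower probe sets and 63 lower genes. Signals of 500 or more on both arrays left 106 higher and 24 lower probe sets, and 66 higher and 12 lower genes. At 1.5-fold there were 1252 higher and 1285 lower probe sets, and 764 higher and 550 lower genes; at 3-fold, 47 and 41 probe sets, and 21 and 12 genes. The share of the mutant's higher genes that the RNAi line shared was 20.2% at 1.5-fold, and that of its lower genes 9.09% with quantile normalization of each pair. Neither has the matching share of all genes beside it. The looser limit takes in more genes of the RNAi line as well, so 20.2% cannot be set against 9.68% at 2-fold. The cause of these changes was not tested, apart from the stricter and looser limits, which change the counts by construction. Other counts over all probe sets or genes stayed within 1.5 times, and the median over bright probe sets within 0.1. Of 56 list medians, 32 moved by more than 0.1 under at least 1 alternative, 23 of them under another scaling, and the count of higher genes moved by over 1.5 times for 9 of 56 lists. Among these, NAC factors and wall enzymes held 1 higher gene in place of 2, gibberellin and calcium genes 0 in place of 1 and MADS-box factors 1 in place of 0, each under at least 1 scaling. Of 153 higher and 96 lower genes, 120 higher and 50 lower stayed past 2-fold under median, quantile and loess scaling and the mean over probe sets, among them 22 of 30 named higher and 2 of 4 named lower genes. No bright named gene past 2-fold changed sign. The endosperm marker GLUB-5 was at -0.31 as deposited and at 0.22 after quantile normalization. No paired analysis was possible because each group has 1 array.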

Other observations

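The largest differences between mutant and wild type were in genes without a descriptive name. Such genes made up all but 30 of the 153 higher genes and all but 4 of the 96 lower ones. They are also most of the bright genes, since only 1914 of 13272 carried a descriptive name. Of genes with a descriptive name 1.57% were higher and 0.209% lower, against 1.15% and 0.723% of all bright genes. Those given here were chosen after their values were seen. LOC4349255 had 187 in mutant panicles and 3604 in wild-type panicles, 19.3-fold lower, while at ripening it had 2842 in RNAi panicles against 2397 in wild type. LOC4350782 had 336 in the mutant against 4622 in wild type, and 6913 in RNAi panicles against 6689 in wild type at ripening. LOC4330584 had 2581 on the mutant array and 344 on the wild-type array, 7.51-fold higher. LOC4325989 had 1511 in mutant panicles and 271 in wild-type panicles, and was also higher in the RNAi line, with 2302 against 325 in wild type at ripening.

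Some genes past 2-fold lie close together. Ordered along the chromosomes, 9086 of 13272 windows of 21 bright genes held no gene past 2-fold and 18 held 5, the highest number. The windows overlap, so these 18 are not 18 separate places. Over all bright genes 1.15% were 2-fold higher and 0.723% 2-fold lower. Whether the genes lie closer together than these shares alone would give was not tested. One run on chromosome 7 holds LOC4343813, with 9253 in the mutant against 1639 in wild type, LOC4343814, with 1339 on the mutant array and 4256 on the wild-type array, and LOC4343817, with 532 in mutant panicles and 1911 in wild-type panicles. The first and second are direct neighbours and differ in opposite directions. LOC4343797, with 571 in the mutant against 1485 in wild type, lies near them on the same chromosome. A stretch of 48 annotated genes on chromosome 1 held 5 genes past 2-fold, 4 higher in the mutant and 1 lower (LOC4327772, with 491 in mutant panicles and 1085 in wild-type panicles), none of them side by side.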
